A study of Rattus norvegicus with 8 samples.

Results

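A set of 9 genes of apoptosis and of the p53 response was followed in whole testes of adult Sprague-Dawley rats after 1 oral dose of Adjudin. The genes were Casp6, Bid, Bax, Bcl2l1, Mcl1, Ccng1, Cdkn1a, Mdm2 and Fas. All probe sets whose only platform gene symbol was one of these 9 genes were taken, which gave 17 of the 31099 probe sets of the Affymetrix Rat Genome array (Rat230_2). They covered 8 of the 9 genes, out of 14217 genes with such a probe set on the array. Bax had 0 probe sets of its own, because the 1 probe set that carries its symbol also carries another, and it was not analysed here. A probe set is a group of short oligonucleotides that together report 1 transcript. Of the 17 probe sets, 13 reached a scaled signal of 100 on at least 2 arrays and were tested, and these covered 7 genes. The other 4 were the 3 probe sets of Fas and 1 of the 3 probe sets of Bcl2l1.

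The arrays formed 3 groups. Testes were taken 4 d (3 arrays) and 8 h (2 arrays) after 50 mg/kg body weight of Adjudin, which is known to disrupt the junctions that hold germ cells to Sertoli cells, and 3 control arrays held testes of untreated rats. No vehicle group is named, the age is given only as adult, and the labels do not state that each array came from a separate rat, so the spread behind each p-value may be technical. Hybridisation had taken place in 3 runs. All groups were present in run 1 and in run 3, with 1 array apiece. The other run, run 2, took only 4 d 2 and control 2, which were washed with another version of the fluidics protocol. The recorded settings of these 2 arrays also name mouse as the sample type, where those of the other arrays name rat. The reason is not stated, and both were kept as rat arrays by their titles.

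Apoptosis is run by caspases, proteases that stay inactive until an upstream signal cuts or clusters them. One route starts at death receptors of the cell surface such as Fas, and another at the mitochondrion, where the BCL-2 family decides whether the outer membrane is opened: BAX and BAK open it, BCL-XL and MCL1 hold them back, and BH3-only proteins such as BID release that hold. The transcription factor p53 switches on genes that stop the cell cycle (Cdkn1a), that start apoptosis (Bax, Fas) and that limit p53 itself (Mdm2, Ccng1). In the testis, germ cells die by apoptosis both in normal spermatogenesis and after many toxicants.

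Across these genes the 4 d testes differed from untreated testes in a few members, not in all. Ccng1, Casp6 and 1 of the 2 probe sets of Bid were higher at 4 d, while no probe set of Cdkn1a, Mdm2, Bcl2l1 or Mcl1 passed the threshold. At 8 h, no member passed it. With the hybridisation run as a block in the fit, 1 probe set each of Mcl1 and Mdm2 passed at 4 d (adjusted p = 0.00353 for Mcl1, higher, and 0.0106 for Mdm2, lower), as did that of Mcl1 at 8 h (0.0360). At that time Ccng1, Casp6 and 1 probe set of Mcl1 were already above every control array. Signals below are scaled so that the 2% trimmed mean of each array is 500. Log2 changes are on the log2(signal + 32) scale, which understates the change of dim genes. Folds are on this scale too and are not ratios of the mean signals. Adjusted p-values are those of limma with Benjamini-Hochberg adjustment over all 19785 probe sets tested, with a threshold of 0.05.

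**Figure D1:**
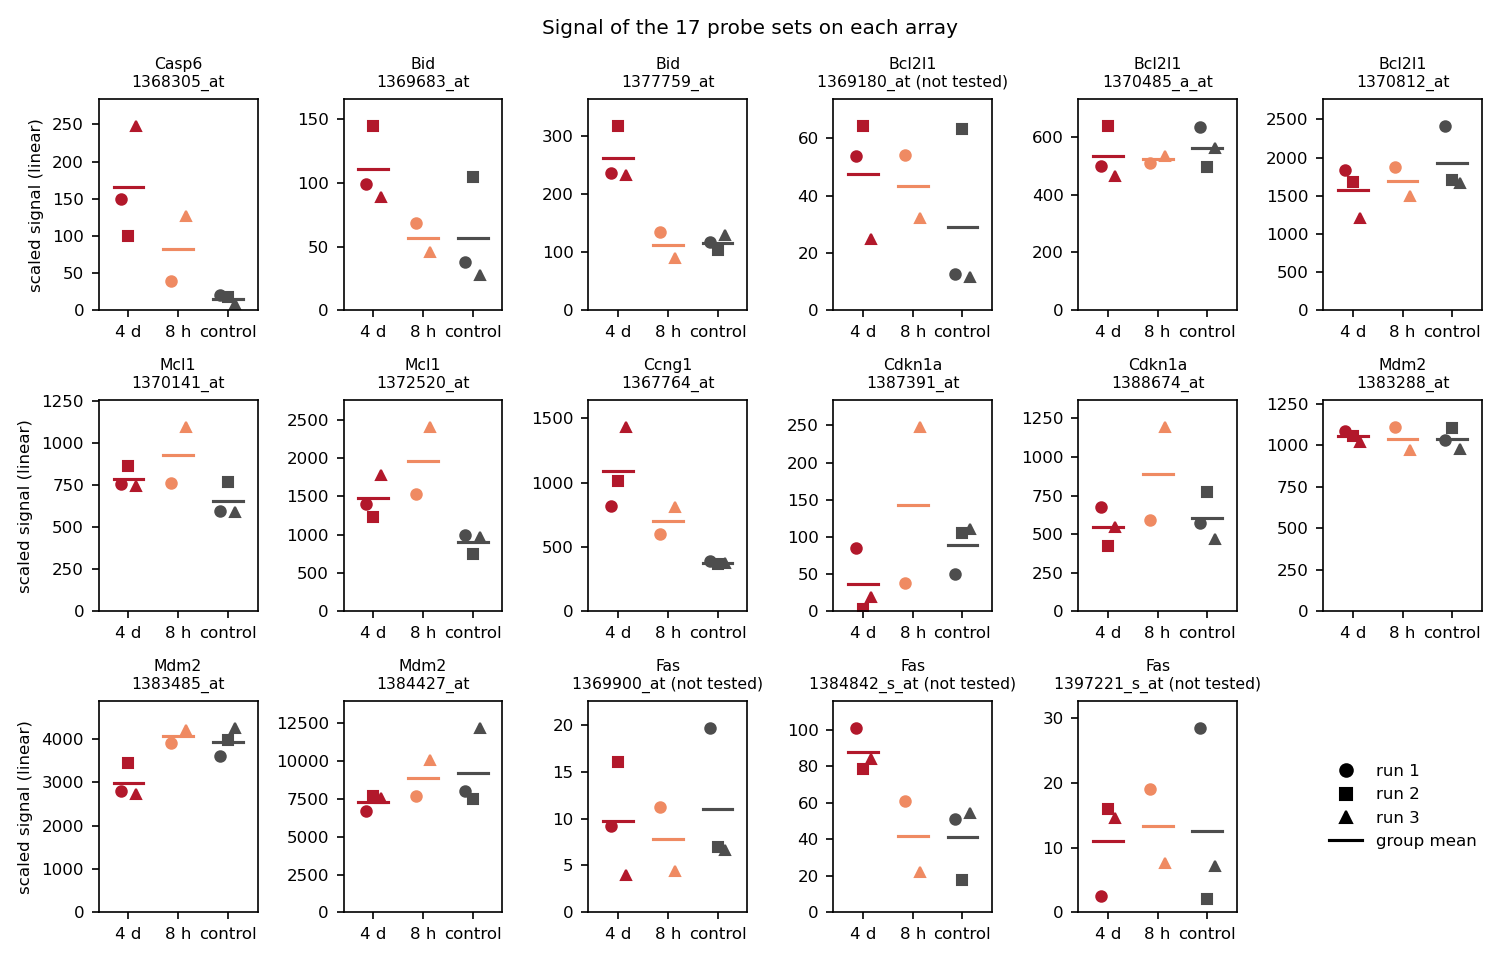
Scaled signal (linear axis from 0) of each of the 17 probe sets on the 8 arrays, by group (4 d, 8 h, control). Points are arrays, their shape gives the hybridisation run and lines are group means. The 3 arrays at 4 d lie above all 3 controls for Casp6, Ccng1, Bid 1377759_at and Mcl1 1372520_at.

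The p53 target genes come first because their promoters can be read for the p53 motif. The motif searched was the p53 decamer, the 10-base unit that p53 binds as an adjacent pair. It reads the same on both strands. The window was the 250 bases before the annotated start in RefSeq's GRCr8 promoter table, which held 11 entries for 8 of the 9 genes. Exact decamers stood in 2 of the 11, those of Ccng1 and Cdkn1a, against 6.64% of all 33469 entries. In both, a second decamer lay directly beside the first, with 1 mismatch over the 20 bases. Such a pair was found in 20 of the 33469 entries (0.0598%). The tolerance of 1 mismatch was chosen after these sequences were seen. The windows of Ccng1 (chr10:25684877-25685126, minus strand) and Cdkn1a (chr20:7150682-7150931, plus strand) are printed below with the pair in capitals, and that of Casp6 (chr2:221140136-221140385, plus strand) is printed for comparison, without an exact decamer. A match describes letters in this window and is not a measured binding site. The rest of each gene was not searched, so a window without a decamer does not show that p53 has no site elsewhere. The windows of Mdm2 and Fas, which are named as p53 targets above, held no exact decamer either. The pair spans bases -242 to -223 from the start in Ccng1 and -201 to -182 in Cdkn1a.
Ccng1: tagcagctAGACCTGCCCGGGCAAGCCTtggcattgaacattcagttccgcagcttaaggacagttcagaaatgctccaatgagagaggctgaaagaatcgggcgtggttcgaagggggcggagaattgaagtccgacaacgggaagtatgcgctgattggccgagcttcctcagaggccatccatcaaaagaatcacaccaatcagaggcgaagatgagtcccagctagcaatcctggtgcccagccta
Cdkn1a: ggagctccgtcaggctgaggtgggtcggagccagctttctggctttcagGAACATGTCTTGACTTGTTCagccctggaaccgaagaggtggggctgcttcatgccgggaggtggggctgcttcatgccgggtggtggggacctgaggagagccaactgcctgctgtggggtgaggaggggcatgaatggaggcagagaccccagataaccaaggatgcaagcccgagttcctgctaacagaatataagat
Casp6: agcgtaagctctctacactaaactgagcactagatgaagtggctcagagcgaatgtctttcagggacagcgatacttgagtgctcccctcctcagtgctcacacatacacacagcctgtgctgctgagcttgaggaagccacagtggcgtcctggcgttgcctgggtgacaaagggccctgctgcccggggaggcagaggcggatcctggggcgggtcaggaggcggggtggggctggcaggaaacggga

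The first of these, Ccng1, encodes cyclin G1, a p53 target that takes part in the control of MDM2 and p53. Its probe set had signals of 821, 1013 and 1428 at 4 d, 601 and 809 at 8 h, and 388, 369 and 379 in controls. The 3 groups did not overlap: every array at 8 h lay above every control, and every array at 4 d above both arrays at 8 h. At 4 d, Ccng1 averaged 1087 ± 310.2 against 379 ± 9.50 in controls (SD, n = 3 each), a 2.66-fold change (log2 1.41, SE 0.20, adjusted p = 0.00264). Within the runs the log2 difference between 4 d and control was 1.02, 1.38 and 1.83. The call held under all 16 alternative settings tried. The log2 change at 8 h was 0.83 (95% interval 0.32 to 1.33, adjusted p = 0.552, unadjusted p = 0.00455), and it did not pass. From the direct comparison of 4 d with 8 h the log2 change was 0.58 (adjusted p = 0.195, and 0.0417 with run as a block).

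Cdkn1a encodes p21, the inhibitor of cyclin-dependent kinases through which p53 halts the cell cycle. The brighter of its 2 probe sets, 1388674_at, had signals of 678, 424 and 545 at 4 d, 590.2 and 1190.3 at 8 h, and 572, 776 and 471 in controls. The groups overlapped, and 8 h 2 was the highest of the 8 arrays. The log2 change was -0.13 at 4 d (95% interval -0.75 to 0.49, adjusted p = 0.846) and 0.48 at 8 h (-0.21 to 1.17, adjusted p = 0.9999). The dim probe set 1387391_at, with 85.8, 3.40 and 19.8 at 4 d, 38.2 and 247 at 8 h, and 50.6, 106 and 110.1 in controls, did not pass either (log2 -0.97, SE 0.58 at 4 d). It was again highest on 8 h 2. Cdkn1a has an adjacent decamer pair like Ccng1, and neither of its probe sets passed the threshold at either time.

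Mdm2 encodes the ubiquitin ligase that marks p53 for degradation and is itself a p53 target. Its 3 probe sets differed among themselves. Probe set 1383485_at had 2800.5, 3436 and 2719.9 at 4 d, 3919 and 4217 at 8 h, and 3617, 3965 and 4242 in controls. All 3 arrays at 4 d lay below all other arrays for it, but the log2 change of -0.40 did not pass (SE 0.13, adjusted p = 0.0868, and 0.0106 with run as a block). Against 8 h its log2 change was -0.45 (adjusted p = 0.112, and 0.0104 with run as a block). The log2 change of probe set 1384427_at was -0.30 at 4 d (adjusted p = 0.393), with overlapping groups, 6688 to 7679 at 4 d and 7511 to 12149.6 in controls. For 1383288_at it was 0.02 at 4 d (95% interval -0.25 to 0.29) and 0.00 at 8 h (-0.30 to 0.31), and that probe set had the smallest change of the 3 at both times. Over the 8 arrays, 1383288_at ran against 1384427_at (Pearson r of -0.82), while 1383485_at and 1384427_at ran together (0.68).

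Fas, the death receptor that recruits FADD and caspase-8, stayed near the floor of the array. Its brightest probe set, 1384842_s_at, had 101, 78.4 and 84.0 at 4 d, 61.2 and 22.2 at 8 h, and 51.2, 17.8 and 54.4 in controls. All 3 arrays at 4 d were above all 3 controls, but only 1 of the 8 arrays reached the signal minimum, so the probe set was not tested. With no minimum its log2 change at 4 d was 0.75 (SE 0.31, adjusted p = 0.258). The other 2 probe sets of Fas lay between 2.00 and 28.4 on all arrays.

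Bid links the death receptor route to the mitochondrion, because caspase-8 cuts the BID protein into its active form. Probe set 1377759_at had 236, 316 and 232 at 4 d, 135 and 90.6 at 8 h, and 117, 104 and 129 in controls. The arrays at 4 d stood above all others, and those at 8 h lay on both sides of the controls. Its mean was 261 ± 47.2 at 4 d against 117 ± 12.4 in controls (SD, n = 3 each), a 1.96-fold change (log2 0.97, SE 0.22, adjusted p = 0.0203). The call held under 11 of 16 alternatives. It was lost without control 1 (adjusted p = 0.0575), control 2 (0.0720), 4 d 1 (0.0668) or 4 d 2 (0.0875), and without both arrays of run 2 (0.222). At 8 h the log2 change was -0.05 (95% interval -0.59 to 0.49, adjusted p = 0.9999), and Bid 1377759_at was also higher at 4 d than at 8 h (log2 1.02, SE 0.24, adjusted p = 0.0382). That call between the times held under 4 of 16 alternatives, and it was lost when any single array but control 3 was left out (adjusted p of 0.0564 without control 2 to 0.260 without 8 h 2). The dimmer probe set 1369683_at gave 98.6, 144 and 88.6 at 4 d, 68.4 and 45.4 at 8 h, and 37.8, 104 and 27.8 in controls, where control 2 overlapped the 4 d arrays, and it did not pass (log2 0.76, SE 0.36, adjusted p = 0.252).

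Bcl2l1 and Mcl1 encode the guards that keep the mitochondrial membrane closed. Bcl2l1 (BCL-XL) showed no difference past the threshold at either time. Its brightest probe set, 1370812_at, had 1843, 1682 and 1205 at 4 d, 1882 and 1497 at 8 h, and 2406, 1712 and 1673 in controls, with overlapping groups. The log2 change was -0.29 at 4 d (95% interval -0.73 to 0.16) and -0.18 at 8 h (-0.67 to 0.32). For 1370485_a_at it was -0.08 at 4 d (-0.44 to 0.29) and -0.10 at 8 h (-0.50 to 0.31). The third probe set, 1369180_at, lay between 11.6 and 64.2 on all arrays and was not tested.

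Mcl1 encodes a short-lived guard whose transcript responds to many stress and growth signals. Probe set 1372520_at had 1399.9, 1239 and 1784 at 4 d, 1530.2 and 2401 at 8 h, and 994, 748 and 969 in controls. Both treated groups lay wholly above the controls, and the highest array was 8 h 2. Its log2 change was 1.07 at 8 h (SE 0.23, adjusted p = 0.281, unadjusted p = 0.000881), and 0.68 at 4 d (SE 0.20, adjusted p = 0.0664). With run as a block both passed, at adjusted p = 0.0360 at 8 h and 0.00353 at 4 d. The change at 4 d also passed with only the 2 groups compared (adjusted p = 0.0471), without 8 h 1 (0.0455) and without 8 h 2 (0.0477), and in 4 of 16 alternatives in all. Probe set 1370141_at gave a log2 change of 0.47 at 8 h (95% interval 0.04 to 0.90, adjusted p = 0.9999) and 0.27 at 4 d (-0.12 to 0.65, adjusted p = 0.417), and its groups overlapped at both times. The 2 probe sets thus had the same sign and unequal size.

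Casp6 encodes caspase-6, an executioner caspase that cuts nuclear lamins among other proteins. Its signal was 149, 101 and 247 at 4 d, 39.4 and 126 at 8 h, and 21.2, 17.6 and 8.60 in controls. Every treated array was above every control, and 8 h 2 reached into the 4 d range while 8 h 1 did not. Only treated arrays reached the signal minimum, so the probe set was tested only because of the arrays where it was high. At 4 d the mean was 166 ± 74.6 against 15.8 ± 6.49 in controls (SD, n = 3 each), with a 3.97-fold change in signal + 32 (log2 1.99, SE 0.39, adjusted p = 0.0119). Within the runs the log2 difference was 1.77, 1.42 and 2.78. Because the controls are far below the signal minimum, the size rests on the added constant: the log2 change was 3.07 with 4 added in place of 32, and 1.00 with a constant 4 times as large as 32. With 32 added this was the largest change of a member, but 1.00 is below the lowest value of Ccng1 under any alternative, so the rank rests on the constant too. The call held under 13 of 16 alternatives and was lost without 4 d 1 (adjusted p = 0.0529), 4 d 3 (0.0556) or both arrays of run 2 (0.0628). At 8 h the log2 change was 1.16 (95% interval 0.18 to 2.15, adjusted p = 0.9999), with 0.42 in run 1 and 1.96 in run 3.

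**Figure D2:**
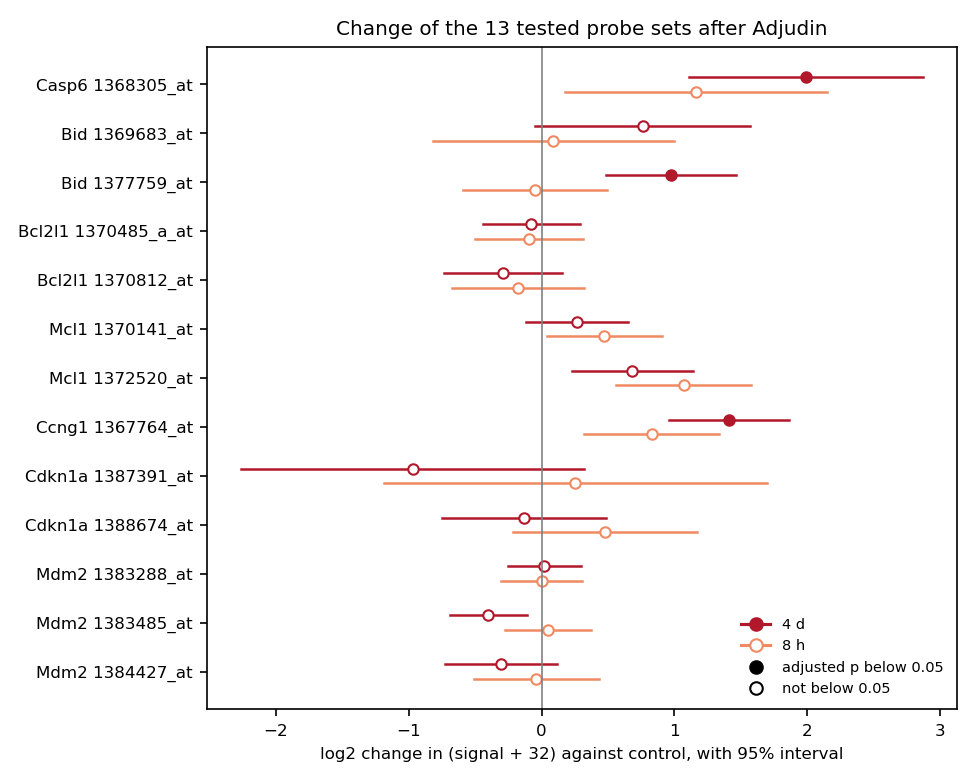
Log2 change against control of the 13 tested probe sets at 4 d (upper of each pair) and 8 h (lower), with 95% intervals from limma over all 8 arrays. Filled points have an adjusted p below 0.05, which holds for Casp6, Bid 1377759_at and Ccng1 at 4 d and for none at 8 h.

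Counted together, 3 of the 13 tested probe sets rose and 0 fell at 4 d, where 9.89% of all tested probe sets were called, 6.16% higher and 3.73% lower. Casp6 is among the 13 only through treated arrays. The median log2 change of the 13 was 0.02, beside 0.04 over all probe sets. With run as a block 5 of the 13 were called, against 22.5% of all. Groups did not overlap for 5 of the 13, 4 of them higher and 1 lower, against 29.3% of all (17.5% higher). At 8 h, 0 of 13 passed in limma and 4 had an unadjusted p below 0.05 (Casp6, Ccng1 and both probe sets of Mcl1). Of all probe sets, 0.0657% were called at 8 h and 3.91% had an unadjusted p below 0.05. With run as a block 1 of the 13 (Mcl1) passed at 8 h, against 0.278% of all. Groups did not overlap for 3 of the 13 at 8 h, all higher, against 14.9% of all (7.32% higher). In 4 d against 8 h, 1 of 13 rose (Bid), where 6.06% of all were called (3.58% higher and 2.47% lower). There the block called 3 of 13, against 15.7%, and groups did not overlap for 4 of 13, 3 higher and 1 lower, against 35.1% (21.2% higher). The comparisons of 4 d and of 8 h with control share the 3 control arrays.

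**Figure D3:**
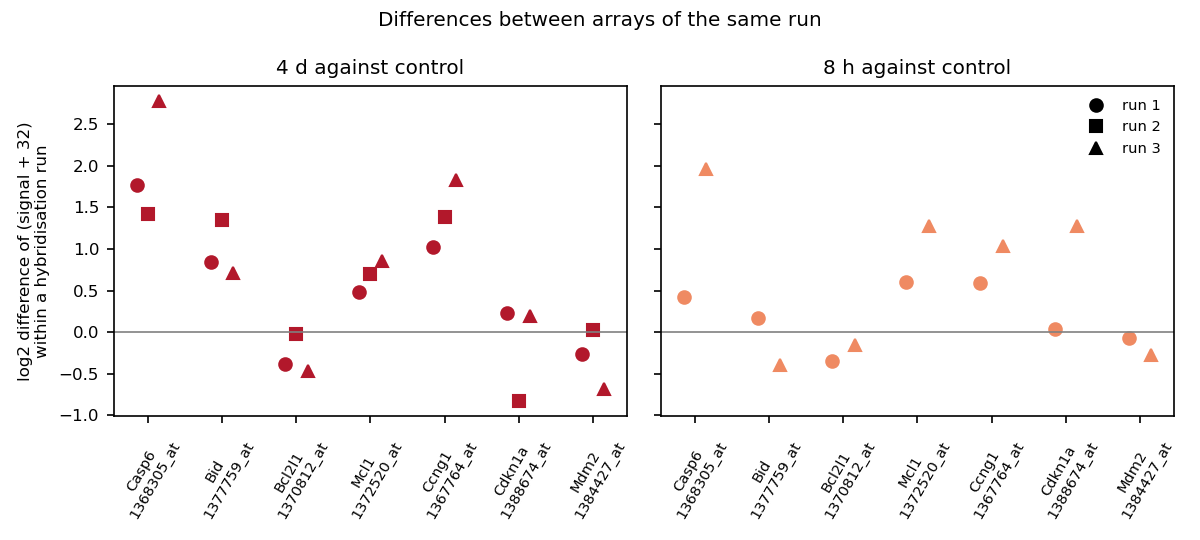
Log2 difference of (signal + 32) between arrays hybridised in the same run, for 4 d against control (3 runs) and 8 h against control (2 runs), in the brightest tested probe set of 7 genes. Ccng1, Casp6 and Mcl1 1372520_at are above 0 in every run at both times, while Cdkn1a 1388674_at lies on both sides of 0 at 4 d.

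Run 3 held the larger difference at 8 h for several members. For Mcl1 1372520_at the log2 difference between 8 h and control was 0.61 in run 1 and 1.28 in run 3, for Ccng1 0.59 in run 1 and 1.03 in run 3, and for Cdkn1a 1388674_at 0.04 in run 1 and 1.28 in run 3. Without 8 h 2 the log2 change at 8 h was 0.75 for Mcl1 1372520_at, 0.62 for Ccng1 and 0.59 for Casp6. For Cdkn1a it was -0.01 for 1388674_at and -0.74 for 1387391_at, against 0.48 for 1388674_at and 0.26 for 1387391_at with both arrays. The sign also turned for Bid 1377759_at (0.18, against -0.05 with both arrays) and Mdm2 1383485_at (-0.01, against 0.05). Without 8 h 1 the sign turned for other probe sets. These were Bid 1369683_at (-0.10, against 0.09 with both arrays), Mdm2 1383288_at (-0.09, against 0.002) and Mdm2 1384427_at (0.15, against -0.04). None of these changes was called.

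The wider pathway was read from 5 gene lists that hold 107 genes, of which 73 were tested, each by its brightest probe set. At 4 d, 9 of the 73 rose and 4 fell (17.8%), where 12.8% of all 11241 genes were called (7.63% higher and 5.19% lower). Of the genes that rose, Casp6 and Tnfrsf21 reached the signal minimum only on treated arrays. Without the 9 members, 6 of 66 rose and 4 fell (15.2%). The median log2 change was 0.16, beside 0.03 over all genes. Under the block for run, 17 of 73 were higher and 6 lower, against 27.2% of all genes. At 8 h, 0 of 73 passed in limma, 8 had an unadjusted p below 0.05 and 3 were called with run as a block. At that time 0.0801% of all genes were called, 0.329% with the block, and 4.06% had an unadjusted p below 0.05. Relative to 8 h, 4 of 73 rose at 4 d and 1 fell (6.85%), where 8.03% of all genes were called (4.46% higher and 3.58% lower), and the block called 16 of 73, against 19.8%. The count at 4 d was 7 without control 2, 8 without control 3, 6 without 4 d 1, 8 without 4 d 3 and 5 without both arrays of run 2. Calls over all probe sets fell too, to 895 without 4 d 1 and 501 without run 2, against 1956 with all arrays.

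Among the death receptors, Tnfrsf1a rose at 4 d under every setting tried. Of 9 tested genes of death receptors and adaptors, 3 rose and 0 fell at 4 d (33.3%). Of all genes, 12.8% were called (7.63% higher and 5.19% lower). Tnfrsf1a, the main receptor of tumour necrosis factor, had 1305, 1411 and 1555 at 4 d, 430.0 and 513 at 8 h, and 191, 229 and 265 in controls, so that the 3 groups stood apart. Its change at 4 d was 5.61-fold (log2 2.49, SE 0.16, adjusted p = 7.66e-05), and it was higher at 4 d than at 8 h as well (log2 1.53, adjusted p = 0.00189). Both calls held under all 16 alternatives. At 8 h its log2 change against control was 0.96 (adjusted p = 0.189, and 0.0229 with run as a block). Tnfrsf21, also called death receptor 6, rose at 4 d (log2 1.29, adjusted p = 0.0291), as did Tradd, the adaptor that binds the TNF receptor (log2 0.96, adjusted p = 0.0352). Tnfrsf21 had 232, 280 and 116 at 4 d, 154 and 109 at 8 h, and 66.6, 78.6 and 44.8 in controls. Only treated arrays reached the signal minimum, so Tnfrsf21 was tested only because of the arrays where it was high. The call of Tnfrsf21 held under 10 of 16 alternatives and was lost without control 1, 2 or 3, without 4 d 1 or 2 and without run 2 (adjusted p up to 0.175). That of Tradd held under 8 and was lost without control 2 or 3 and 4 d 1 or 3, among others (up to 0.160). Against 8 h, Tradd was higher at 4 d as well (log2 1.21, adjusted p = 0.0319, held under 8 of 16).

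The BCL-2 family held calls in both directions. Of 13 tested genes 3 rose and 1 fell at 4 d (30.8%). Of all genes, 12.8% were called (7.63% higher and 5.19% lower). Bok, an effector related to BAX, rose 2.01-fold (log2 1.01, SE 0.12, adjusted p = 0.000785), with 2628, 2637 and 3015 at 4 d, 1786 and 1657 at 8 h, and 1397, 1353 and 1306 in controls. Bcl2l14, a family member known in humans for its testis expression, fell by 1.34 on the log2 scale (SE 0.14, adjusted p = 0.000452), with 3083, 3514 and 3632 at 4 d, 7401 and 7338 at 8 h, and 8047, 7815 and 10370.0 in controls. The 3 arrays at 4 d were all below every other array. Bnip3, a mitochondrial protein known to be induced by low oxygen, rose at 4 d (log2 0.83, adjusted p = 0.0358). It had a log2 change of 1.13 at 8 h (adjusted p = 0.277, and 0.0335 with run as a block). The calls of Bok and Bcl2l14 at 4 d held under all 16 alternatives, and that of Bnip3 under 6. The call of Bnip3 was lost when any control or 4 d array was left out, among other settings (adjusted p up to 0.186 without run 2). Between 4 d and 8 h, Bok (log2 0.67, adjusted p = 0.0166) was higher and Bcl2l14 (log2 -1.11, adjusted p = 0.00399) lower at 4 d.

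Among caspases and their partners Casp6 was the only call. Of 19 tested genes of caspases, the apoptosome and its inhibitors, 1 rose and 0 fell at 4 d (5.26%), against 12.8% of all genes called. With run as a block 4 rose at 4 d, where 27.2% of all genes were called. Between 4 d and 8 h none (0 of 19) passed in limma, where 8.03% of all genes did. There, 4 had an unadjusted p below 0.05, as had 22.9% of all genes. The smallest p there belonged to Aifm1, a mitochondrial flavoprotein that can enter the nucleus in cell death (log2 0.58, adjusted p = 0.0693, and 0.0310 with run as a block).

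Targets of p53 were called in both directions. Of 24 tested target genes 2 rose and 2 fell at 4 d (16.7%), a share near the 12.8% of all genes, with a median log2 change of 0.16. Besides Ccng1, Gadd45a, a growth arrest gene that p53 and other stress signals induce, rose 2.17-fold (log2 1.12, SE 0.15, adjusted p = 0.00211), with 578, 667 and 746 at 4 d, 376 and 461 at 8 h, and 284, 290.3 and 285 in controls. Its groups did not overlap, in the same order as those of Ccng1. Sfn, the cell cycle inhibitor 14-3-3 sigma, fell by 0.91 on the log2 scale (adjusted p = 0.00743), and Polk, a DNA polymerase that copies past lesions, fell by 0.54 (adjusted p = 0.0354). The call of Gadd45a held under 16 of 16 alternatives, that of Sfn under 15 and that of Polk under 5. The call of Polk was lost on leaving out any 1 array, among other settings (adjusted p up to 0.133). Against 8 h, the log2 change of Gadd45a at 4 d was 0.63 (adjusted p = 0.0659, and 0.0187 with run as a block). Of 12 tested genes of p53 and its regulators, 0 rose and 1 fell at 4 d (8.33%), against 12.8% of all genes called. The 1 that fell was Hipk2, a kinase that acts on p53 (log2 -0.94, adjusted p = 0.0191). Its call held under 10 of 16 and was lost without control 2 or 3 and 4 d 1 or 3, among others. At 8 h its log2 change was -0.21 (adjusted p = 0.9999), and between 4 d and 8 h it was -0.73 (adjusted p = 0.106, and 0.0160 with run as a block). The gene of p53 itself had no probe set of 1 symbol in the probe table and was not analysed here. Of the 18 genes with an adjacent decamer pair before their start, 5 were tested. The tolerance that defines this set was chosen after the Ccng1 and Cdkn1a sequences were seen, so the share called in it is no test. At 4 d, where 12.8% of all genes were called, Ccng1 rose and Tmsb15b2, a thymosin, fell (log2 -0.60, adjusted p = 0.0348). Tmsb15b2 was also lower at 4 d than at 8 h (log2 -0.78, adjusted p = 0.0275).

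**Figure D4:**
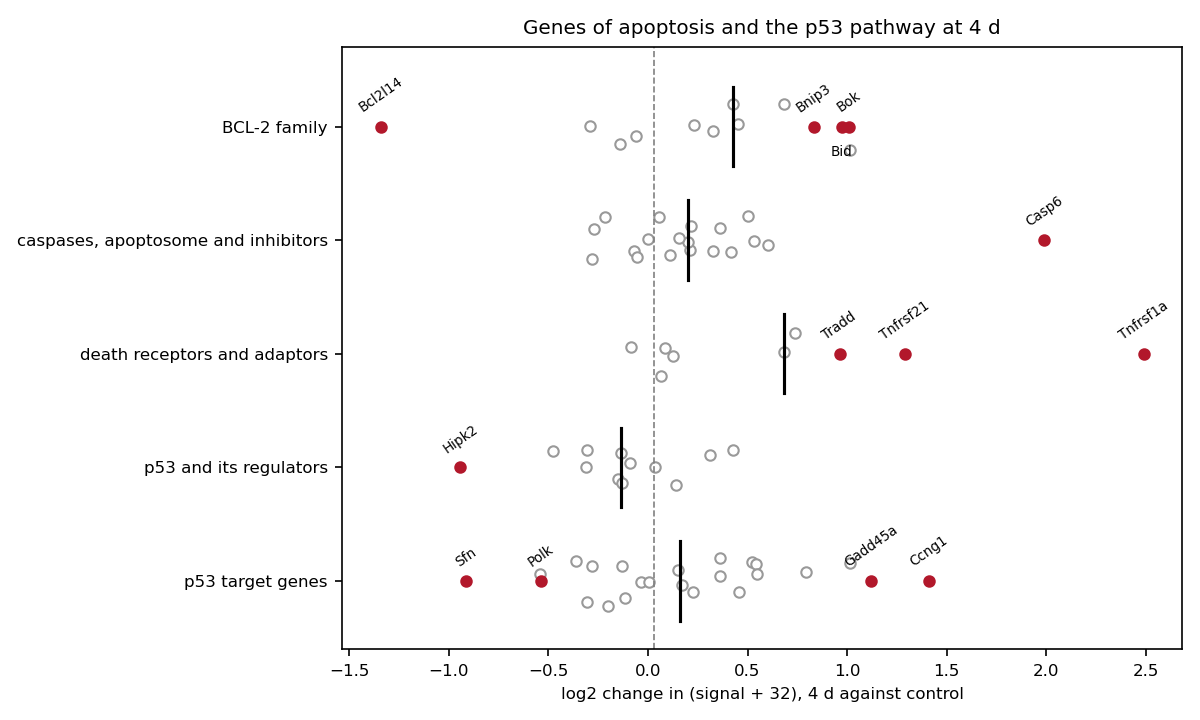
Log2 change at 4 d against control of the tested genes in 5 lists of the pathway. Filled, named points passed an adjusted p of 0.05, black bars are list medians and the dashed line is the median of all 11241 genes, at 0.03. Members of the BCL-2 family and p53 targets lie on both sides of it.

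Markers of several testis cell types also changed at 4 d, where 12.8% of all genes were called in limma (7.63% higher and 5.19% lower). In bulk tissue, fewer cells of a type and less RNA per cell cannot be told apart. The summed signal of 18 leukocyte markers was 16765 to 19297 at 4 d, 11977 to 13262 at 8 h and 12364 to 12918 in controls, and of 17 tested 10 rose and 2 fell at 4 d. The 2 that fell were Adgre1 and Aif1, the brightest of the list in controls (6430 to 7530, against 4492 to 5379 at 4 d). A sum is thus weighted to its brightest markers. For 11 Sertoli cell markers the sum was 36862 to 48304 at 4 d, 27739.7 to 30821 at 8 h and 25121 to 29328 in controls (3 rose and 1 fell at 4 d). Most of that sum in controls was Clu (14224 to 17338) and Cldn11 (5427 to 6720), while Inhbb and Rhox5 were lower on every 4 d array than on any control. For 8 Leydig cell markers the sum was 18527 to 26808 at 4 d, 11598 to 13444 at 8 h and 11231 to 17084 in controls (2 rose). Hsd11b1 alone was 6051 to 9194 at 4 d, against 2297 to 3430 in controls. The log2 change at 4 d was positive for 6 of the 8, but not for Hsd17b3 or Lhcgr. Hsd17b3 had 16.2, 144 and 15.4 at 4 d, against 143, 127 and 124 in controls. Lhcgr had 724, 372 and 554 at 4 d, against 694, 872 and 928 in controls. For 10 markers of elongating and elongated spermatids the sum was 146961 to 212474 at 4 d, 222824 to 288999.6 at 8 h and 215120.1 to 321871 in controls, and 5 fell at 4 d. The 3 red cell markers summed to 6529.6 to 11394 at 4 d, 4232 to 4733 at 8 h and 3166 to 5107 in controls (2 rose at 4 d). The 5 endothelial markers summed to 1045 to 1124 at 4 d, 620.3 to 878 at 8 h and 651 to 809.9 in controls. None (0) of the tested endothelial (4), spermatocyte (5) and spermatogonium (4) markers passed at 4 d in limma, while 2 endothelial, 0 spermatocyte and 1 spermatogonium markers had an unadjusted p below 0.05, as had 27.4% of all genes. The spermatocyte sum was 18632 to 20123 at 4 d, 20127 to 21202 at 8 h and 17311 to 22064 in controls, and that of 6 spermatogonium markers 3338 to 3755 at 4 d, 3067 to 3362 at 8 h and 2739 to 4334 in controls. Itgam, of the leukocyte markers, and Nanos3, of the spermatogonium markers, lay below a signal of 100 on all arrays. The part of these shifts in the rise of Ccng1, Casp6, Bid, Bok and the TNF receptor and in the fall of Bcl2l14 at 4 d was not tested. At 8 h, 0 markers of any list passed in limma, where 0.0801% of all genes did. The leukocyte and Sertoli sums at 8 h overlapped those of the controls.

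Genes whose pattern over the 8 arrays was most like that of a called member were looked up among all tested genes. The points share their group and run, so the correlations only describe the pattern. Those closest to Ccng1 were Fndc3b (Pearson r of 0.99), Zfp36l1 (0.98) and Las1l (0.98). For Casp6 they were Myl12a, Fam117a and Cp (0.98 each), and for Bid 1377759_at Hsd11b2, Grb2 and Sdc1 (0.98 each). Among the members themselves, Casp6 and Ccng1 ran most closely together (0.96), while Ccng1 and Cdkn1a 1388674_at had an r of -0.04.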

How the data were processed

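Total RNA of 8 testis samples was hybridised to 1-colour arrays, 1 array per sample. As deposited, each probe set has a linear MAS 5.0 intensity, per the labels (the series' design text names GeneSpring 7.2 too). Its 2% trimmed mean was 250 on every array. Detection calls were not used here. Each array was scaled to a trimmed mean of 500 and log2(signal + 32) was taken. The fit covered the 19785 non-control probe sets that reached a signal of 100 on at least 2 arrays (57 control probe sets were left out). It used limma 3.58.1 under R 4.3.3 (lmFit, eBayes with trend), all 8 arrays and no block, after a check on simulated data. The groups came from the sample titles. Members, gene lists and tests were chosen with earlier results of these data known. Every member probe set is named, and from each list up to 6 called genes per comparison, or else the one with the smallest p. The 3 most alike genes are also named.

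Of the non-control probe sets 20826 had 1 symbol, 436 several and 9780 none, and 20758 matched the RefSeq gene table by gene ID (0 symbols changed). On each array 51.6% to 59.0% of non-control probe sets reached the minimum, and arrays of a group correlated at r of 0.954 to 0.978. The number of arrays limits the precision. Runs were read from the arrays' settings files. Arrays that shared a run deviated together from their group means (r of 0.353 to 0.507, against -0.476 to 0.246 for other pairs). Deviations within a group cancel out, and those of the 2 arrays at 8 h are mirror images. Part of this contrast was therefore fixed by the centring. By the settings files, the run pairs the same-numbered 4 d and control arrays, while 8 h 2 belongs to run 3. Alternatives were other added constants, no minimum, quantile and median scaling, the run as a block, only the groups compared, a gene's mean over its probe sets, and leaving out each array.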

Additional observations from a re-analysis of the deposited data

Results flagged for a closer look

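Changes that differed between the times, by the test of 4 d against 8 h in limma, were found in 1 member and 4 other genes of the pathway. The change of Bid 1377759_at at 4 d exceeded that at 8 h by a log2 of 1.02. The difference was 1.53 for Tnfrsf1a, 1.21 for Tradd and 0.67 for Bok, and -1.11 for Bcl2l14. Of these, Tnfrsf1a and Bcl2l14 passed under all 16 alternatives, Bok under 11, Tradd under 8 and Bid under 4. No group held 4 or more arrays, so single arrays were not tested as outliers.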

How the results depend on the processing

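The limits of these results lie in 2 or 3 arrays per group and in dim signals, since Casp6, Fas and 1 probe set each of Bid, Cdkn1a and Bcl2l1 lay near or below the signal minimum. The called probe set of Bid, 1377759_at, was also near it in controls (104 to 129) and at 8 h (135 and 90.6). No called change reversed under the alternatives. Sign changes in 39 of 618 recomputed values of member probe sets, and in 5 of 480 of the pathway genes called in some comparison, fell on comparisons where the value had not been called.

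Called member probe sets at 4 d against control (3) became 5 with the replicate block (the run as a block) and 1 without run 2 arrays, an alternative chosen after seeing the data, and ranged from 1 to 4 when single arrays were left out. At 8 h (0) the count was 1 with the block and 0 without any 1 array. Between 4 d and 8 h (1) it was 3 with the block, 0 with no minimum, quantile normalization, equal medians, only the 2 groups or without run 2 arrays, and 0 to 1 with single arrays left out. Called pathway genes at 4 d (13) became 23 with the block and 5 without run 2 arrays, and 6 to 13 with single arrays left out, while calls over all probe sets (1956) became 4451 with the block, 501 without run 2 arrays and 895 without 4 d 1. At 8 h (0) they became 3 with the block and 0 without any 1 array. Between 4 d and 8 h (5) they became 16 with the block, 3 with no minimum, 2 with equal medians, 2 without run 2 arrays and 2 to 7 with single arrays left out. Between 4 d and 8 h, the median over all probe sets was -0.05 (log2) with equal medians, against 0.06. The causes were not tested. Bid 1369683_at fell below the signal minimum after quantile normalization and equal medians and has no value there.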
